A study of Homo sapiens with 14 samples.

Results

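KMT2D binding peaks around TFAP2A and TFAP2C, the genes of the transcription factors AP-2 alpha and AP-2 gamma, were described in SCC23 cells deprived of glucose. A peak belonged to a gene when its summit lay within 100 kb of the gene interval, taken as 10.397 to 10.42 Mb of chromosome 6 for TFAP2A and 55.204 to 55.214 Mb of chromosome 20 for TFAP2C (GRCh37). Of 13808 peaks in the list, 22 met this rule, 19 at TFAP2A and 3 at TFAP2C. The members were chosen by the measured position of their summits, and both loci were proposed with earlier results of this list known, so the number and strength of the peaks are given as a description and nothing was tested.

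SCC23 is an established cell line of head and neck squamous cell carcinoma (HNSCC). The series held 14 samples, all of them kept without glucose, and the series design gives 6 hours of deprivation. The antibodies were against KMT2D, H3K4me1, H3K27ac, H3K4me3, H3K27me3, H3K9me3 and H3. Genotypes were wild type (KMT2D-WT) and KMT2D knockout (KMT2D-KO, made by CRISPR-Cas9). Each histone antibody had 1 sample per genotype. KMT2D ChIP and input had 1 sample each, of KMT2D-WT cells only, so the series held no KMT2D library of KMT2D-KO cells. The peak list of 1 library was used, KMT2D ChIP in KMT2D-WT cells. The other libraries were not analysed here, and a spread between replicates could not be given.

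KMT2D is a methyltransferase of lysine 4 on histone H3 that works mainly at enhancers, to which it is brought by sequence-specific transcription factors. AP-2 proteins bind GC-rich palindromes as dimers. AP-2 alpha is needed for the neural crest, the face and the epidermis, and AP-2 gamma for the trophoblast, germ cells and surface ectoderm. In keratinocytes, from which squamous carcinomas derive, both act alongside p63 on epidermal genes.

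TFAP2A is transcribed from the minus strand, towards lower coordinates, and has more than one start. RefSeq promoters of 2 starts are shown because the 5′ part of the gene, to which they belong, carried most of the peaks inside it. Each is the 250 bases before the start, on the strand of the gene, in GRCh38.p14, at chr6:10419660-10419909 and chr6:10412392-10412641. Capitals mark matches to TATAAA, the letters of a TATA box.
TFAP2A promoter 1: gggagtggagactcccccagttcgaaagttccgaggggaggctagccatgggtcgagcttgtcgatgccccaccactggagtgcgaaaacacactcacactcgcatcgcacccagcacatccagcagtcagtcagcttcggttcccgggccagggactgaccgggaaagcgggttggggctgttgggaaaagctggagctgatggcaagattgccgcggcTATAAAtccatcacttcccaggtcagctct
TFAP2A promoter 2: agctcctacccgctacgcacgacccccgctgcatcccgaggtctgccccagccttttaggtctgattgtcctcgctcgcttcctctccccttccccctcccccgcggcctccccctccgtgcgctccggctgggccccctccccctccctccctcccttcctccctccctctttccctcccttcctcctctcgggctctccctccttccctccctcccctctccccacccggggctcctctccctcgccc

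Promoter 1 holds TATAAA from 30 to 25 bases before the start, and promoter 2 does not hold it on either strand. Of 35116 RefSeq promoters of this length, 10.7% hold TATAAA on at least 1 strand. Promoter 2 is GC-rich (71.2% against 59.6% in promoter 1 and a median of 58.0% over all promoters). C and T make up 81.2% of its bases as printed, a share that is lower in 99.9% of all promoters. The AP-2 palindrome GCCNNNGGC, searched on both strands, is in neither window and in 19.8% of all promoters. The 2 starts lie 7.27 kb apart.

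The TFAP2A window held 85.2 peaks per Mb (95% Poisson interval 51.3 to 133), which was 19 times the 4.49 per Mb of chromosomes 1 to 22 and X (interval of the ratio 11.4 to 29.6). The TFAP2C window held 14.3 per Mb (2.95 to 41.7), or 3.18 times (0.656 to 9.30). Peaks covered 4.81% of the TFAP2A window and 0.564% of the TFAP2C window, against 0.2% of chromosomes 1 to 22 and X. All intervals cover counting error only and treat peaks as independent, which neighbouring peaks need not be.

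**Figure D1:**
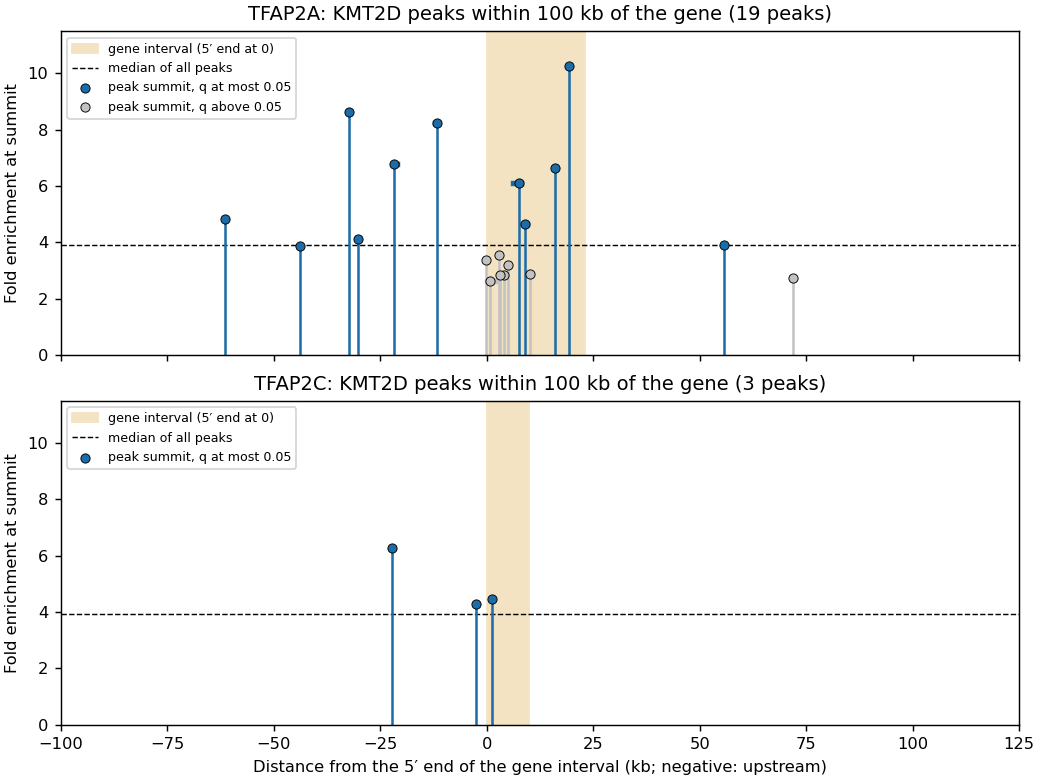
Fold enrichment at the summit (y axis) of each KMT2D peak against its distance in kb from the 5′ end of the gene interval (x axis, negative upstream), for TFAP2A above and TFAP2C below. Points are summits, thick horizontal lines the extent of a peak and shading the gene. The 19 TFAP2A peaks lie on both sides of the 5′ end and reach 10.3, while the 3 TFAP2C peaks lie between 22.2 kb upstream and 1.25 kb inside.

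Over all 19 peaks, fold enrichment at TFAP2A was near that of the whole list. Fold enrichment, which sets the ChIP pileup at a summit against its local background, ranged from 2.64 to 10.3. Its median was 3.93, the same as over the whole list. At a limit of 0.05 on the q-value, the p-value adjusted by the peak caller over the genome, 11 of the 19 peaks passed (57.9%), near the 58.5% of all peaks. The median fold enrichment of these 11 was 6.11, against 5.03 over all peaks that passed, and that of the other 8 was 2.85, against 3.09. Fold enrichment and q-value come from the same pileup and background, so a split by q-value separates fold enrichment by construction. The medians on either side of this limit lay farther apart at TFAP2A than in the list, but rest on only 11 and 8 peaks there. At a limit of 0.01 on the q-value 9 peaks passed (47.4%, against 47.7% of all peaks). The 3 TFAP2C peaks all passed the limit of 0.05, and 2 of them that of 0.01.

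The depth behind these values was modest. Fragments, which stand here for the extended single-end reads and were computed from fold enrichment and p-value, numbered between 13 and 70 over the TFAP2A summits. Their median was 24, against 25 in the whole list, and the TFAP2C summits held 21 to 32. Intervals given with fragments cover counting error only. A summit is the highest point of a peak that passed the p-value limit of the caller. Its number therefore tends to lie high, which the intervals do not allow for. The genome-wide background, the lowest that the peak caller allows, stood at 2.88 fragments. Among peaks at this background, 19 fragments was the smallest number that reached a q-value of 0.05, and summits with fewer fragments could not pass that limit.

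**Figure D2:**
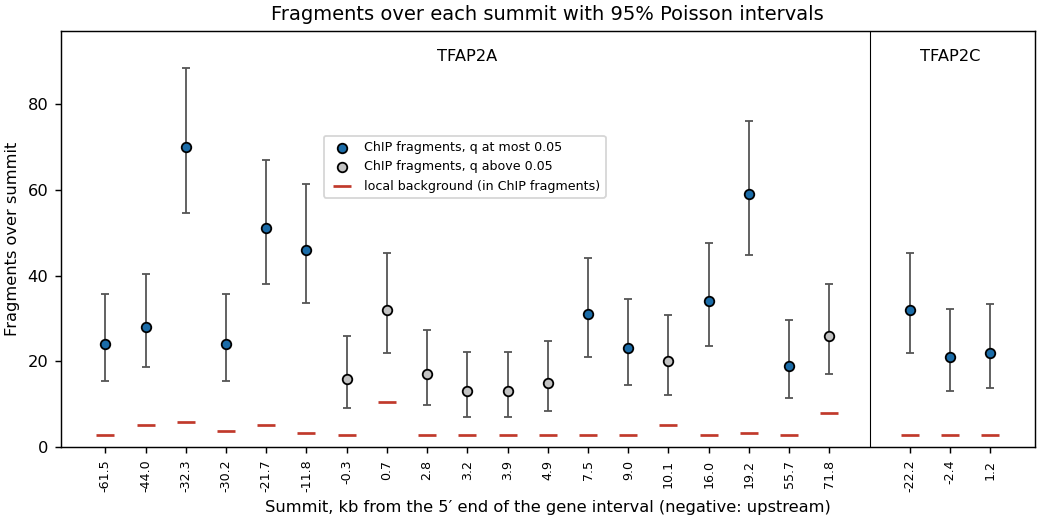
ChIP fragments over each summit (y axis) at TFAP2A and TFAP2C, ordered by distance from the 5′ end of the gene interval in kb (x axis, negative upstream). Bars are 95% Poisson intervals and red marks the local background in ChIP fragments. The highest numbers are 70 and 59, at 32.3 kb upstream of and 19.2 kb inside TFAP2A, and the summits next to the 5′ end hold 13 to 32.

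The part of TFAP2A nearest to its 5′ end carried a run of weak peaks. With gaps of 1000 bp closed, 6 peaks formed a block of 5481 bp at chr6:10415044-10420524, from -0.52 kb (upstream) to 4.96 kb (inside) of the 5′ end of the interval, and peaks covered 66.7% of it. Their fold enrichment was 2.64 to 3.56, below the median of the list at every peak. None of the 6 passed the q-value limit of 0.05, and the lowest q-value was 0.217. Over their summits lay 13 to 32 fragments.

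The peak nearest to the 5′ end, chr6:10420269-10420524, had its summit 0.29 kb upstream, with 16 fragments (95% interval 9.15 to 25.98) and a fold enrichment of 3.38. The ends of the interval are known only to 1 kb, so upstream and inside cannot be told apart at this distance. The next peak in the direction of transcription, chr6:10417781-10419977, was the widest of the locus and, at 2197 bp, of the 784 peaks of chromosome 6. It also had the lowest fold enrichment of the locus, 2.64, and only 24 of the 757 peaks wider than 1000 bp had a lower value (3.17%). The local background at its summit was 3.65 times the genome-wide level, which corresponds to 4 fragments of the control.

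The other 4 peaks of this block were narrow (198 to 439 bp), with summits 2.76, 3.16, 3.93 and 4.86 kb inside the gene. They stood at the genome-wide background, with 17, 13, 13 and 15 fragments. Their q-values were 0.217, 1, 1 and 0.994 in the same order.

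A block of 3 peaks followed at chr6:10409871-10413873, from 6.13 to 10.1 kb inside. Its wide peak, chr6:10411905-10413873 (1969 bp, the third widest of chromosome 6), reached a fold enrichment of 6.11 with 31 fragments and a q-value of 1.155e-05. It was followed by chr6:10410582-10411246 with 23 fragments and a fold enrichment of 4.65, and by chr6:10409871-10410266 with 20 fragments over a local background of 1.83 times the genome-wide level and a fold enrichment of 2.87. The q-value was 0.0059 for the former and 1 for the latter.

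Both wide peaks of the gene itself lay in its 5′ part. In the peak list the weaker one began next to the 5′ end of the interval and the stronger one extended from 6.13 to 8.1 kb inside, and the 2 starts of the promoters printed above are 7.27 kb apart in GRCh38. The coordinates were not converted between builds, so no peak was assigned to a promoter. RefSeq places the non-coding TFAP2A-AS1 and TFAP2A-AS2 next in order after TFAP2A on the chromosome. Whether signal over the gene belongs to these genes or to TFAP2A cannot be told apart from peaks.

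**Figure D3:**
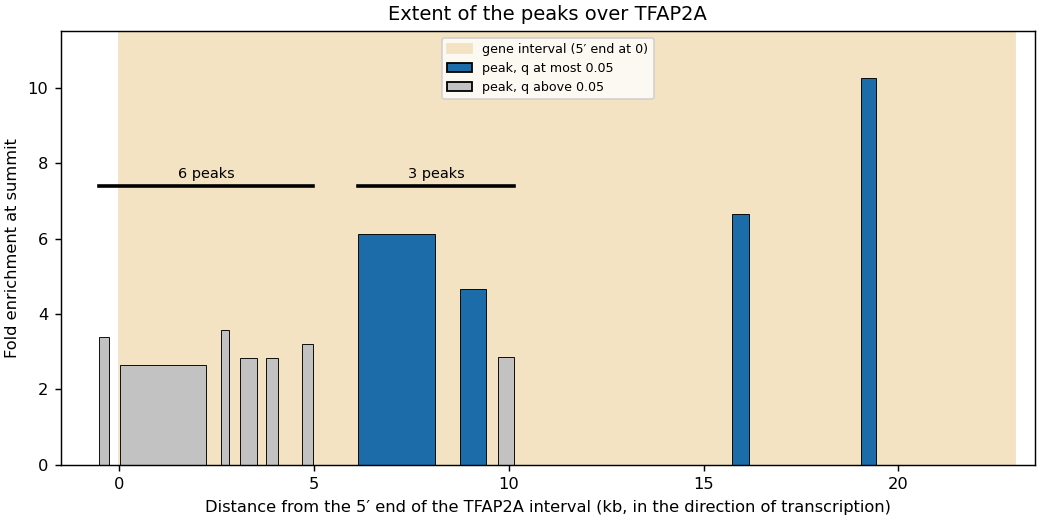
Extent (width of each bar, kb from the 5′ end of the TFAP2A interval in the direction of transcription) and fold enrichment (height) of the 10 peaks inside TFAP2A and of the peak just upstream. Black lines mark the blocks of 6 and 3 peaks. The block of 6 stays at or below 3.56, and the peaks at 7.48, 16.0 and 19.2 kb reach 6.11, 6.65 and 10.3.

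The strongest peak of the locus lay in the 3′ part of the gene. At chr6:10400583-10400950, with its summit 19.2 kb inside, 59 fragments (44.9 to 76.1) gave a fold enrichment of 10.3 and a q-value of 1.2e-16. It ranked 29 of 784 peaks on chromosome 6 and 520 in the list, and 96.2% of all peaks had a lower fold enrichment. Its neighbour at chr6:10403836-10404272 had 34 fragments and a fold enrichment of 6.65. Both were narrow, 368 and 437 bp, and their backgrounds were 1.17 and 1.00 times the genome-wide level.

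Altogether 10 summits lay inside the 23 kb of the gene, or 4.35 per 10 kb, and 4 of these peaks (40%) passed the q-value limit of 0.05, against 58.5% of all peaks. Their median fold enrichment was 3.38. Peaks covered 31.5% of the gene interval.

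Upstream of TFAP2A, 7 summits lay within 100 kb, and 6 of these peaks (85.7%) passed the same limit, against 58.5% of all peaks. Their median fold enrichment was 4.84. The strongest, chr6:10452033-10452549, lay 32.3 kb upstream with 70 fragments (54.6 to 88.4), the most of any peak of either locus. Its fold enrichment of 8.64 was below that of the peak with 59 fragments, since its local background was 2.01 times the genome-wide level.

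Next came chr6:10431487-10432050, 11.8 kb upstream, with 46 fragments, a fold enrichment of 8.24 and a q-value of 3.66e-11. The peak at chr6:10441099-10442119, 21.7 kb upstream, was 1021 bp wide and held 51 fragments with a fold enrichment of 6.80. Its background corresponded to 2 control fragments. These 3 distal peaks and the peak in the 3′ part of the gene were the only ones of the locus with more than 40 fragments.

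The weaker upstream peaks, 30.2, 44 and 61.5 kb from the 5′ end, held 24, 28 and 24 fragments with fold enrichments of 4.11, 3.89 and 4.84. In the order of RefSeq genes, LINC00518, MIR5689HG with the microRNA gene MIR5689, and LINC02522 follow TFAP2A on this side, all of them non-coding. The next protein-coding gene is GCNT2, an enzyme that branches the sugar chains of the I blood group antigen. The peaks were not assigned to these genes, because no GRCh37 positions of them were used.

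Downstream of TFAP2A there were only 2 peaks. The nearer one, chr6:10364255-10364537, held 19 fragments with a fold enrichment of 3.93 and a q-value of 0.0395. The farther one, chr6:10348093-10348278, held 26 fragments over a background of 3 control fragments, with a fold enrichment of 2.72 and a q-value of 1. The signal at TFAP2A was therefore unequal around the gene, with 259 summit fragments in the 100 kb upstream, 257 in the 23 kb of the gene and 45 in the 100 kb downstream. These sums are over unlike lengths and include the local background and peaks above the q-value limit.

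TFAP2C carried 3 narrow peaks, all at the genome-wide background. The strongest, chr20:55181532-55181929, lay 22.2 kb upstream with 32 fragments (21.9 to 45.2), a fold enrichment of 6.29 and a q-value of 1.2e-06, and 82.1% of all peaks had a lower fold enrichment. The others lay on either side of the 5′ end of the gene. At chr20:55201358-55201682, 2.42 kb upstream, 21 fragments (13.0 to 32.1) gave a fold enrichment of 4.29 and a q-value of 0.0395. At chr20:55205002-55205462, 1.25 kb inside the gene, 22 fragments (13.8 to 33.3) gave a fold enrichment of 4.47 and a q-value of 0.0059. The 3 intervals overlap, so the number of fragments does not set these peaks apart from each other. No peak lay in the 100 kb downstream. A region with too few fragments to be called is not listed, so KMT2D below that level cannot be told from its absence.

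Within 5 kb of the 5′ end, TFAP2A had 6 summits with fold enrichments of 2.64 to 3.56 and TFAP2C had 2 with 4.29 and 4.47. Hence TFAP2A had more peaks there and each TFAP2C peak the higher fold enrichment. The TFAP2C peaks held 21 (13.0 to 32.1) and 22 (13.8 to 33.3) fragments. At the same background, the TFAP2A peaks held from 13 (6.92 to 22.2) to 17 (9.9 to 27.2). The wide TFAP2A peak held 32 (21.9 to 45.2), more than either TFAP2C peak. These intervals overlap between the loci, so the number of fragments does not set the TFAP2C peaks apart from those of TFAP2A. The role of the local background is seen in a pair of peaks with the same 32 fragments over the summit. The wide peak at the 5′ end of TFAP2A had a fold enrichment of 2.64 over a background of 3.65 times the genome-wide level, and the upstream peak of TFAP2C had 6.29 over a background of 1.00 times. With the genome-wide background at both, an alternative chosen after seeing the data, both would have 6.29.

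The local background comes from the control. It was at the genome-wide level at 10 of the 19 TFAP2A peaks and at all 3 TFAP2C peaks, and at the other 9 TFAP2A peaks it was 1.14 to 3.65 times that level. At 5 TFAP2A peaks it corresponded to whole fragments of the control, from 2 to 4. It was at least 2 times that level at 3 TFAP2A peaks (15.8%, against 18.6% of all peaks). With the genome-wide background at every peak, the median fold enrichment at TFAP2A was 4.84 in place of 3.93. The median of the whole list under this alternative is not given here, so 4.84 cannot be set against the list. The local background was 1.155 times the genome-wide level at the median of the list and 1.0 times at that of TFAP2A. What raises the control at TFAP2A peaks was not tested.

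Wide peaks numbered 3 of 19 at TFAP2A (15.8%) and 0 of 3 at TFAP2C, against 5.48% of all peaks. In the list, peaks wider than 1000 bp reached 7.56 at the median, and the 3 at TFAP2A, with 6.80, 6.11 and 2.64, all lay below it.

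**Figure D4:**
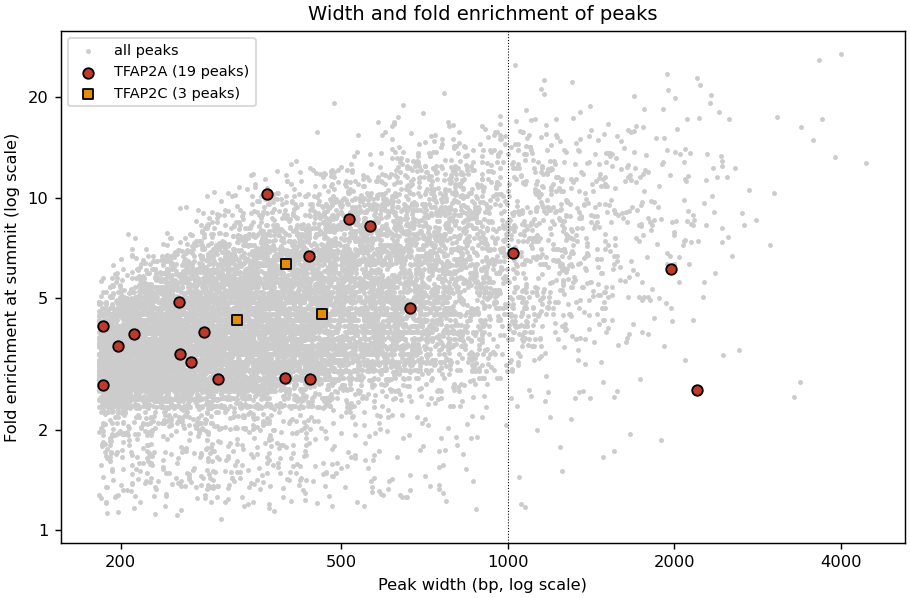
Width in bp (x axis, log scale) and fold enrichment at the summit (y axis, log scale) of all 13808 peaks in grey, with the 19 TFAP2A peaks as circles and the 3 TFAP2C peaks as squares. The dotted line is at 1000 bp. The TFAP2A peak of 2197 bp lies at the lower edge of the wide peaks with 2.64.

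TFAP2A was among the windows richest in peaks, and TFAP2C was not. When chromosomes 1 to 22 and X were divided into 13114 adjacent windows of 223 kb, 66.7% of them held no peak, the mean was 0.998, and 8 held at least 19 (0.061%), up to 28. Of 13926 windows of 210 kb, 1775 (12.7%) held at least 3. Windows centred on the summits of these chromosomes each hold a peak by construction, and 211 of 13136 such windows held at least 19 peaks (1.61%) and 9685 held at least 3 (73.7%). Such windows overlap where summits are near each other and include those centred on the peaks of both loci, so they are not separate places. The gene windows were not placed on the grid of adjacent windows, and the values rank the loci without testing them.

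**Figure D5:**
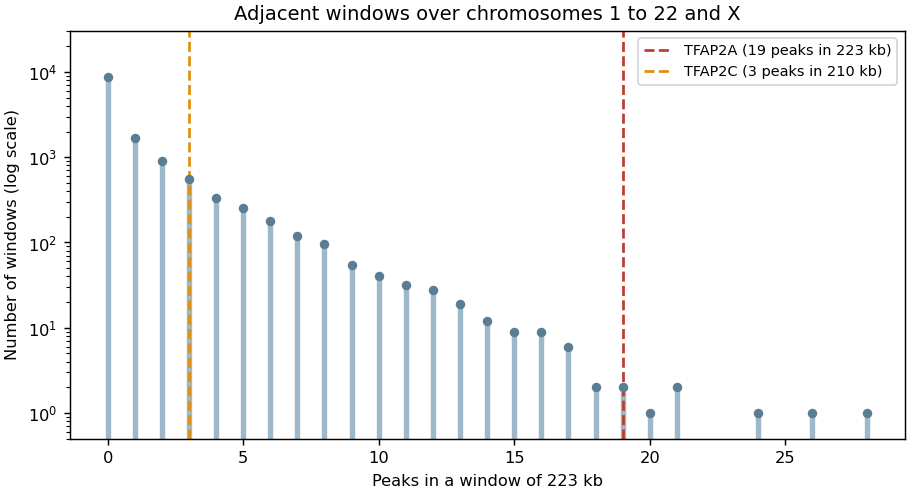
Number of adjacent windows of 223 kb on chromosomes 1 to 22 and X (y axis, log scale) by the peaks they held (x axis). Dashed lines are the 19 peaks at TFAP2A and the 3 at TFAP2C, whose own window is 210 kb. Windows with 19 peaks or more number 8 of 13114.

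Stitched over gaps of up to 12500 bp, 16 of the 19 TFAP2A peaks formed 1 cluster over 63.5 kb, from the 3′ part of the gene to the peak 44 kb upstream. This cluster belongs to the dense clusters of the list. Among the 22 clusters of at least 10 peaks it had the longest span, where the median was 34.7 kb. Peaks covered 15.7% of it, and 9 of its 16 peaks (56.2%) passed the q-value limit of 0.05, against a median of 65.2% over the 22 clusters. Its median fold enrichment of 4.0 was near their median of 4.18. Its 492 summit fragments were also near the median of 502 over these clusters, and 11 of them had more. The span depended on weak peaks. The block of 6 peaks at the 5′ end, none of which passed the limit of 0.05, joined the peaks farther inside the gene to those upstream. With peaks above that limit left out, the largest cluster at TFAP2A held 5 peaks in place of 16.

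At TFAP2C the same stitching joined the 2 peaks at the 5′ end over 4.1 kb and left the upstream peak single. Neighbouring TFAP2A peaks were separated by a median of 2316 bp, and 7 of 18 gaps were under 1000 bp (38.9%). The median gap over chromosomes 1 to 22 and X was 29550 bp, and 11.8% of gaps were under 1000 bp. The gaps at TFAP2C were 3319 and 19428 bp.

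Stretches without peaks lay on either side of both groups of peaks, and 1 of the 4 was long for this list. No peak was called for 184 kb below and 242 kb above the outermost TFAP2A peaks, gaps longer than 79.4% and 82.9% of those between neighbouring peaks. Below the TFAP2C peaks the list was empty for 2.36 Mb, and only 239 of 13113 gaps were longer. Above them it was empty for 157 kb, longer than 77.1% of gaps. The limit of 100 kb therefore fell where there were no peaks. The members nearest to it at TFAP2A lay 48.8 kb downstream and 61.5 kb upstream of the gene interval, with fold enrichments of 2.72 and 4.84. The first peaks outside lay 233.4 and 303.4 kb away with 3.87 and 4.11. At TFAP2C the first peaks outside were 149.6 kb beyond the 3′ end with 6.83 and 2379.5 kb from the 5′ end with 6.73.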

How the data were processed

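Per the labels and the study's methods, the authors mapped ChIP reads to hg19 (GRCh37) with Bowtie2, kept reads with a unique position and called peaks with MACS2 at a p-value limit. No listed p-value was above 0.00984. The control is not named, and the methods give single-end reads. The deposited fold enrichment is a ratio, at the summit, of ChIP pileup to local background after scaling and with a pseudocount. The deposited −log10 p-value and −log10 q-value refer to the summit, and the deposited score is the −log10 p-value on a coarser scale and entered no result.

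From fold enrichment and p-value, the ChIP fragments at each summit, as a whole number, and the background there were computed. The scale, 0.381, and the genome-wide background, 1.10 after scaling, were estimated from the list. The rebuilt −log10 p matched the deposited one to within 0.000544 at all 13808 peaks. The step was tested on simulated lists.

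Gene intervals were taken as given to 1 kb. Distances are from the 5′ end of these intervals, and the density of a chromosome was taken between its outermost peaks. Since the reference used was GRCh38, peaks were not joined to it, and of RefSeq only promoter sequences, strand and gene order were used. The other AP-2 genes were not analysed here for this reason. The members, lists and thresholds were chosen with earlier results of these data known, and TATAAA after the promoters were seen. Named singly were the 5 peaks of highest fold enrichment, the peaks inside the gene, the peak nearest to its 5′ end, the widest and the weakest peak, and the peaks next to the window limits. The remaining peaks of these loci were named too, outside of that rule. No test was run. Scripts ran under Python 3.11.15, with pandas 2.3.3 and numpy 2.4.6 for tables, scipy 1.17.1 for intervals and matplotlib 3.10.9 for plots. Alternatives covered q-value limits, window sizes, merging and stitching distances and the pseudocount.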

Additional observations from a re-analysis of the deposited data

How the results depend on the processing

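Among 50 values recomputed under alternatives, 12 left the interval of the reported value, or for a count differed by over 1.5 times, 38 did not, and 0 turned direction. Counts, sums and cluster sizes have no direction to turn, and intervals from few peaks are wide, so this tally does not show that the values are stable. The TFAP2C density relative to chromosomes 1 to 22 and X, for one, was 6.08 with a window of 50 kb against 3.18, and was counted among the 38. At TFAP2A, 11 and 9 of the 19 peaks were left at q-value limits of 0.05 and 0.01, and 12 after peaks within 1000 bp were merged. Density relative to chromosomes 1 to 22 and X was 32.6 with a window of 50 kb and 10.0 with 200 kb, against 19. The median fold enrichment was 6.11 and 6.65 at the q-value limits, against 3.93. Both values counted as unmoved only because the interval of the reported median is wide, and that interval treats neighbouring peaks as independent. The largest cluster fell from 16 peaks to 9 with gaps of up to 5 kb, and to 5 and 4 at the q-value limits. At TFAP2C, a window of 200 kb gave 6 peaks with 146 summit fragments in place of 3 with 75, and a q-value limit of 0.01 left single peaks (a largest cluster of 1). The median fold enrichment there was 7.64 without the pseudocount, against 4.47. Each of these follows from the fewer peaks, the other window or the other formula that the alternative itself sets. The genome-wide background at every peak was added after seeing the data. No paired analysis was made, because 1 of the 14 samples was analysed and the series held no KMT2D library of KMT2D-KO cells to set beside it. With 1 library and 13 to 70 fragments per summit, repeat libraries are lacking to tell recurring weak peaks from others.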
